A study of Mus musculus with 16 samples.

Results

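The nuclei described here carried transcripts of *Foxp2*, *Hs3st4* and other genes of deep cortical projection neurons, and came from single-nucleus RNA-seq of 16 mouse hippocampi. A nucleus was a member when it had 1000 to 7000 genes, at most 5% mitochondrial UMIs (unique molecular identifiers, 1 per captured transcript), a UMI of at least 5 of the 8 markers *Foxp2*, *Syt6*, *Hs3st4*, *Hs3st2*, *Sdk2*, *Htr1f*, *Col5a1* and *Garnl3*, and no UMI of *Prox1*, *Fibcd1*, *Gad1*, *Gad2*, *Mog*, *Pdgfra* or *Csf1r*. This left 6810 members, 5.25% of the 129802 nuclei within the same limits on genes and mitochondrial UMIs and part of 155084 barcodes in all. Before the 7 barred genes were applied, 9158 nuclei had at least 5 markers, and a barred gene removed 2348 of them (25.6%). Over 4000 genes were detected in 2796 members (41.1%), and no doublet caller was run.

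The design crossed genotype with treatment, in 4 groups of 4 male mice with 1 animal per library. Wild-type (WT) C57BL/6 mice were 2 months and 23 days old, and mice without *Ifnar1* (Ifnar1-/-, KO), which encodes a subunit of the type I interferon receptor, were 3 months and 3 days old. In each genotype, 1 group received vehicle and 1 received DMXAA, a compound that activates mouse STING. The deletion was carried by the whole animal and not by neurons alone, and genotype cannot be told apart from age.

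Corticothalamic neurons sit in the deepest layer of the cortex and send their axons to the thalamus, where they tune the relay of sensory signals. Type I interferon binds a receptor that activates the kinases JAK1 and TYK2. A complex that holds STAT2 and IRF9 then binds an interferon response element in the promoters of interferon-stimulated genes. STING lies upstream, where it senses the second messenger made by cGAS on cytosolic DNA and leads to the transcription of interferon itself.

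Members numbered 546, 220, 677 and 662 in WT vehicle replicates 1 to 4. They numbered 412, 221, 468 and 441 in WT DMXAA. The KO vehicle libraries held 420, 349, 465 and 395, and the KO DMXAA libraries 468, 381, 454 and 231. Each library held 2601684 to 8965926 member UMIs, so the smallest libraries gave the least precise levels. The median member had 9719.5 to 11863 UMIs across WT libraries and 12739 to 17813 across KO libraries, which did not overlap. Any 2 libraries shared 12 to 41 barcodes over 120 pairs, and at most 1 member barcode, in 3 pairs.

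The label of deep-layer corticothalamic neurons was only partly matched by markers that the selection did not use. Levels are CPM, the UMIs summed over a library's members and scaled to 1 common library total, given as mean ± SD over the 16 libraries, and are compared for 1 gene at a time. *Tle4*, a corepressor of deep-layer neurons, was at 358 ± 52.6 CPM in members and 99.3 ± 13.3 CPM in 44598 other excitatory nuclei. These had a *Slc17a7* UMI, which was not required of members, and no UMI of *Gad1*, *Gad2*, *Mog*, *Pdgfra* or *Csf1r*. Unlike members, they could hold *Prox1* or *Fibcd1*. *Grik3*, a kainate receptor subunit, was at 384 CPM against 67.5, and *Sulf1*, an extracellular sulfatase, at 100.4 CPM against 13.8. The transcription factors *Zfpm2* (1084 against 479 CPM), *Sox5* (816 against 394), *Fezf2* (28.2 against 8.99) and *Tbr1* (20.9 against 6.35) were likewise higher in members. All 7 were higher in members in 16 of 16 libraries. *Ntsr1*, the neurotensin receptor that defines corticothalamic cells in a widely used Cre line, was not: it was at 4.56 ± 1.61 CPM in members, 4.67 ± 1.37 in other excitatory nuclei and 10.1 in 5934 nuclei chosen on upper-layer genes, and was higher in members than in other excitatory nuclei in 6 of 16 libraries. These are descriptions without a test, since the selection and the markers read the same nuclei.

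The 8 selecting markers were unevenly present. *Hs3st4*, which adds a sulfate to heparan sulfate chains, had a UMI in 98.7% of members and reached 2728 CPM against 825 in other excitatory nuclei. *Garnl3* was in 97.7%, *Sdk2*, an adhesion molecule, in 94.1%, *Htr1f*, a serotonin receptor, in 90.6% and *Hs3st2* in 77.7%. *Foxp2*, a transcription factor of deep-layer neurons, was in 69.3% of members at 226 CPM, against 5.85% of other excitatory nuclei at 11.7 CPM. *Col5a1*, a fibrillar collagen, was in 47.3% and *Syt6*, a synaptotagmin, in only 13.6%. The higher levels of these 8 genes in members follow from the selection. *Foxp2* had a UMI in 42.1% of the 2991 members with 5 markers. As a name only, taken from 2 of the selecting genes, the members are called *Foxp2* and *Hs3st4* deep-layer neuron nuclei here.

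Members differed in how many of the 8 markers they held. Of the members, 2991 had 5 markers, 2025 had 6, 1348 had 7 and 446 had all 8, while 5768 nuclei just outside had 4. From 4 markers to 5 to at least 6, *Tle4* went from 138 to 245 to 465 CPM and *Grik3* from 120 to 250.8 to 533 CPM, neither of which is among the 8. *Foxp2* went from 33.2 to 77.7 to 378 CPM, but it is 1 of the markers counted, so its level has to rise with their number.

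Genes of other cell types were also detected. The near projecting list summed to 946 CPM in members, 646 in other excitatory nuclei and 1816 in upper-layer nuclei. In members it rests mainly on *Tshz2*, at a mean log2 CPM of 9.90, with *Lypd1* next at 4.26. In the same order of nuclei, the CA1 list summed to 338, 424 and 338 CPM and the CA3 list to 331, 377 and 232. The subiculum list summed to 25.8, 28.0 and 22.3 CPM and the dentate granule list to 23.5, 260 and 91.0. The astrocyte list summed to 681, 420 and 668 CPM in the same order. Its most abundant tested genes in members were *Slc1a2*, at a mean log2 CPM of 9.38, and *Slc1a3*, at 3.83, so it rests mainly on *Slc1a2*. The part of these transcripts in the results below was not tested. *Cux2*, an upper-layer transcription factor, was at 18.04 CPM in members and 362 in upper-layer nuclei, and *Rorb*, of middle layers, at 121 CPM in members. Layer 6b and subplate genes were higher than in other excitatory nuclei, at 11.7 against 1.47 CPM for *Ccn2*, a secreted matrix protein, and 32.6 against 10.9 for *Hcrtr2*, an orexin receptor. The 6 microglial marker genes summed to 20.4 to 97.9 CPM per library, and none was at 0 over all libraries. The genes that stood furthest above other excitatory nuclei were the receptor tyrosine kinase *Ror2* (35.1 against 2.08 CPM), *Cobll1* (129 against 11.4), *Cntnap4* (396 against 36.9) and *Arhgap25* (35.5 against 2.61). The adhesion molecule *Cdh18* (1403 against 163 CPM) and the µ-opioid receptor *Oprm1* (145 against 36.3) were also among the 25 leading genes. *Glis3* (14.1 against 204 CPM), *Adarb2* (50.1 against 419) and *Synpr* (40.8 against 279) were among the lowest. Since *Prox1* and *Fibcd1* were barred from members alone, these low values may follow in part from the selection.

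**Figure D1:**
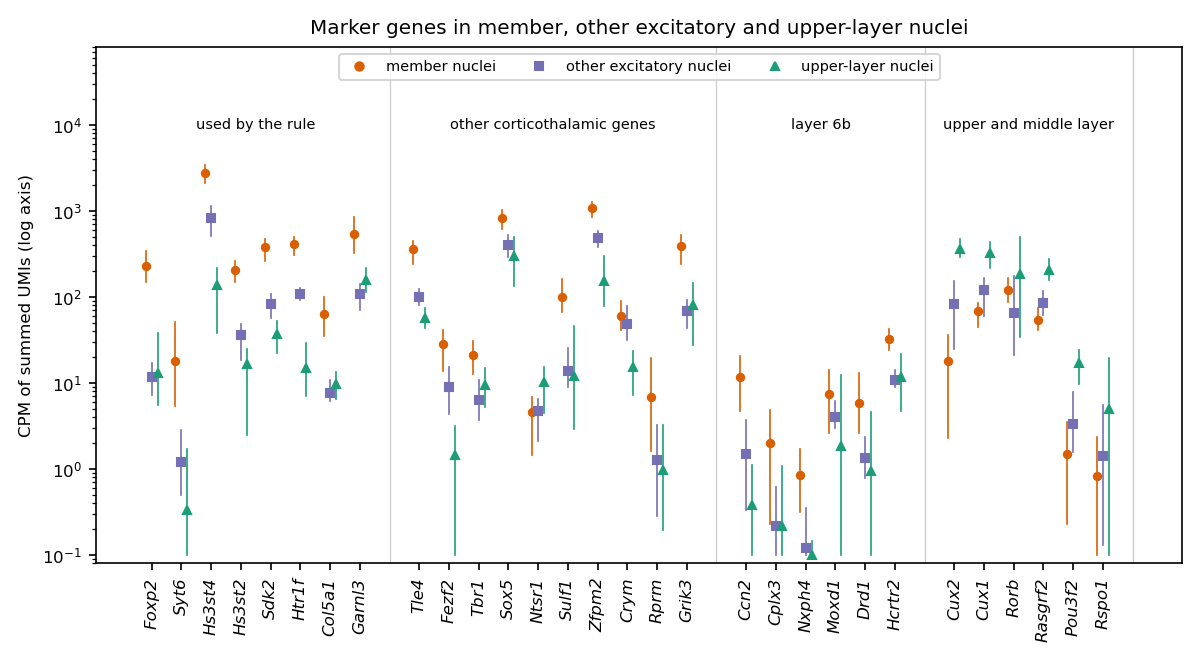
Mean CPM of marker genes in members, other excitatory nuclei and upper-layer nuclei over the 16 libraries, on a log axis in CPM, with lines from the lowest to the highest library and values below 0.1 drawn at 0.1. *Tle4* and *Grik3* lie higher in members than in the other nuclei, whereas the points of *Ntsr1* lie close together at 4.56 and 4.67 CPM in members and other excitatory nuclei.

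Members made up 6.25%, 2.68%, 7.24% and 6.91% of nuclei in WT vehicle libraries and 5.01%, 2.74%, 4.77% and 5.20% in WT DMXAA libraries. The WT means were 4.43% ± 1.14 (SD, n = 4) with DMXAA and 5.77% ± 2.10 with vehicle, a difference of -1.34 percentage points (two-sided exact permutation p = 0.371). In KO libraries the shares were 6.26%, 5.33%, 5.63% and 5.28% with vehicle and 6.56%, 5.27%, 5.21% and 3.18% with DMXAA, a difference of -0.573 points (exact permutation p = 0.486). The smallest p that 4 against 4 libraries allow is 0.0286. The groups overlapped in both genotypes, and neither difference passed the test.

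These differences moved by more than 1.5 times when certain libraries were left out. Without WT vehicle replicate 2 the WT difference was -2.37 points (exact permutation p = 0.0286, the smallest possible here), without WT vehicle replicate 3 it was -0.853 and without WT DMXAA replicate 2 it was -0.776. Without KO vehicle replicate 1 the KO difference was -0.362 points. Without KO DMXAA replicate 1 the KO difference was -1.08 points (exact permutation p = 0.0286), and without KO DMXAA replicate 4 it was 0.0523 points (exact permutation p = 0.943). With each nucleus thinned to 2000 UMIs, which left out 2151 shallower nuclei in WT vehicle, 2046 in WT DMXAA, 1112 in KO vehicle and 1324 among KO DMXAA libraries, 1794 members remained and the WT and KO differences were -0.602 and -0.0833 points (exact permutation p = 0.286 and 0.8286).

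**Figure D2:**
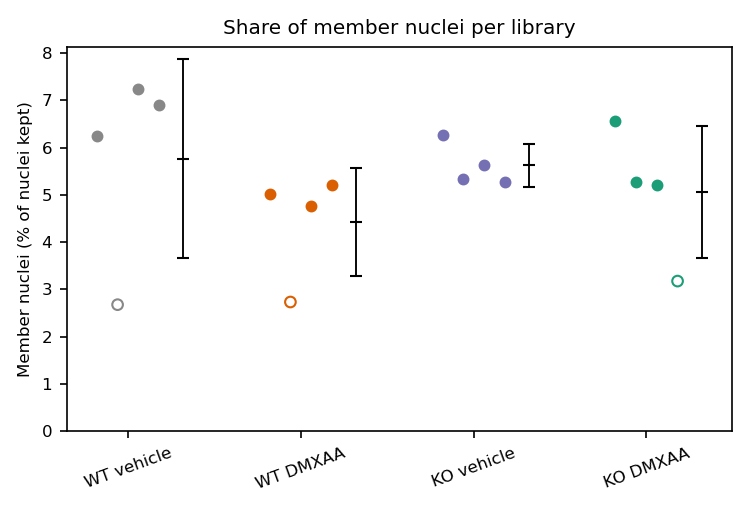
Members as a percentage of nuclei in each library, by group, with bars for the mean ± SD of 4 libraries. Open circles mark the 3 libraries with under 250 members (WT vehicle replicate 2, WT DMXAA replicate 2 and KO DMXAA replicate 4), which lie lowest at 2.68%, 2.74% and 3.18%.

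*Ifnar1* was measured first because it is the gene that KO mice lack. It was at 15.7, 17.2, 13.1 and 15.04 normalised CPM in WT vehicle libraries and 16.2, 13.7, 14.97 and 15.2 in WT DMXAA, where normalised CPM are CPM after TMM scaling between libraries. In KO libraries it was at 9.60, 12.1, 10.8 and 11.97 with vehicle and 14.9, 9.72, 14.0 and 9.25 with DMXAA. All KO vehicle libraries lay below all WT vehicle libraries, with a log2 fold change of -0.45 ± 0.16 (SE, n = 4 each, edgeR adjusted p = 0.0336), whereas 2 KO DMXAA libraries lay within the WT range. Of all genes, 20.6% were called lower in KO vehicle, and for 21.7% all KO vehicle libraries lay below all WT vehicle libraries. The fall of *Ifnar1* therefore cannot check the labels on its own. The counts were taken at the 3′ end and included introns, so transcripts of a disrupted gene are still counted and the level does not show receptor function. The call was lost in 11 of the alternatives (edgeR adjusted p = 0.0525 to 0.103), among them those without WT vehicle replicates 1, 2 or 4 or without KO vehicle replicates 1, 2 or 3.

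A single library stood apart from its group. The first dimension of variation among libraries was drawn from the genes that differed most between each pair of libraries. WT DMXAA replicate 3 lay at 1.02 on it (36.3% of that variation), within the KO range of 0.0777 to 1.36. The other 7 WT libraries lay from -1.14 to -0.596. In WT DMXAA replicate 3 *Ifnar1* (14.97 normalised CPM) lay within the range of the other WT libraries, and *Ddx60* (6.02) within that of the other WT DMXAA libraries. *Taco1*, a mitochondrial translation factor, was at 50.4 normalised CPM in it, against 8.93 to 13.8 in the other WT libraries and 37.0 to 141 in KO libraries. Results are therefore also given without it.

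DMXAA was compared with vehicle in WT members to ask which genes of these neurons responded. Of 14519 genes tested, 3 rose and 0 fell (0.0207%, edgeR quasi-likelihood test, Benjamini-Hochberg adjusted p under 0.05 and absolute log2 fold change over 0.1). All 3 are interferon-stimulated genes, and 2 are described here, *Ddx60* at chr8:61928087-62038244 and *Eif2ak2* at chr17:78852564-78882573 (GRCm38). DESeq2 called 4 genes and limma-trend 3, and each set held these 3. At an unadjusted p under 0.05 there were 621 genes (4.28%).

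*Ddx60*, a helicase that aids the sensing of viral RNA, had 6 UMIs over the 4 WT vehicle libraries and 130 over WT DMXAA. It was at 0.138, 0.687, 0.192 and 0.102 normalised CPM with vehicle and 11.9, 5.35, 6.02 and 2.69 with DMXAA. These did not overlap. *Ddx60* passed the filter on low counts only through the WT DMXAA libraries, where it was high, so its fitted log2 fold change of 4.87 ± 0.60 (SE, edgeR adjusted p = 0.00204) is given as a description. With no filter on low counts it was 4.84 (edgeR adjusted p = 0.000114). In members with at most 4000 genes and in those without a further non-neuronal gene, *Ddx60* had too few UMIs to pass the filter and was not tested. In KO members only 2 and 5 UMIs were counted, too few for a fold.

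*Eif2ak2*, the kinase PKR that halts translation on double-stranded RNA, was at 1.10, 2.40, 1.63 and 1.12 normalised CPM with vehicle and 23.6, 10.4, 6.19 and 8.22 with DMXAA in WT. The groups did not overlap, and the log2 fold change was 3.04 ± 0.42 (SE, edgeR adjusted p = 0.00661). In KO members it was at 0.377 to 0.809 with vehicle and 0.884 to 2.47 with DMXAA, which also did not overlap (log2 1.35, edgeR unadjusted p = 0.0341), from 15 and 36 UMIs. Its WT call was lost when members over 4000 genes or members with a further non-neuronal gene were left out (edgeR adjusted p = 0.112 and 0.244), where 1 gene was called. It was also lost without WT vehicle replicates 1, 3 or 4 (edgeR adjusted p = 0.0554, 0.0529 and 0.0879) and without the 3 libraries with fewest members (0.0726).

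**Figure D3:**
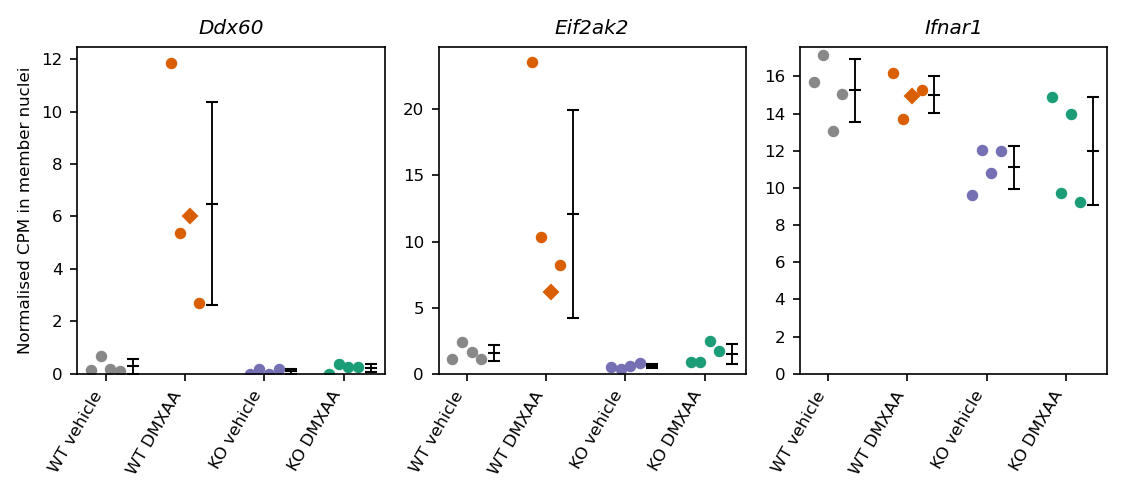
Normalised CPM per library of *Ddx60*, *Eif2ak2* and *Ifnar1* in members, by genotype and treatment, with bars for the mean ± SD of 4 libraries and a diamond for WT DMXAA replicate 3. For the first 2 genes all WT DMXAA points lie above the WT vehicle points, from 6.19 to 23.6 for *Eif2ak2*, while the KO vehicle points of *Ifnar1* lie at 9.60 to 12.1, below the WT vehicle points.

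The promoters of 2 of these genes are shown because they hold letters of the interferon response element, to which the complex that holds STAT2 and IRF9 is known to bind. The letters GAAANNGAAA were searched on both strands in RefSeq windows from 250 bases before to 50 bases after each gene start (GRCm38.p6). Capitals mark each match. The *Ddx60* run is the 100 bases before the start, chr8:61927987-61928086 on the plus strand, with matches beginning 53 and 19 bases before the start. The *Eif2ak2* run is chr17:78882535-78882564, on the minus strand in the first exon, with a match 18 bases after the start.
Ddx60: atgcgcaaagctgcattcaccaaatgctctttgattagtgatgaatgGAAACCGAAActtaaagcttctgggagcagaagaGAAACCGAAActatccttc
Eif2ak2: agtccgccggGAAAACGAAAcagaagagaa

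The letters occurred in 1131 of 32851 windows (3.44%). Among the 28 tested genes of the interferon list that had a window, 11 (39.3%) held a match. The windows of *Xaf1*, *Irf9* and *Gm20559* held none. A match describes the sequence and is not a measure of binding.

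A list of 99 interferon-stimulated genes was followed as a group. The files held 96 of them, 3 of these had 0 UMIs in members, and 33 passed the filter on low counts, 5 of which (*Ddx60*, *Xaf1*, *Gm20559*, *Ifi35* and *Irgm1*) passed it only with the WT DMXAA libraries. In WT, 3 of the 33 were called, all higher, against 0.0207% of all genes. At an unadjusted p under 0.05, 16 were higher and 0 lower, against 2.45% and 1.83% of all genes, and for 11 the 4 DMXAA libraries all lay above the 4 vehicle libraries, against 0.847% of all genes (0 lay below, against 0.854%). Of the 28 genes that passed on the other 12 libraries, 2 were called and 12 had an unadjusted p under 0.05 in the higher direction. For 7 of the 28 the 4 DMXAA libraries all lay above the 4 vehicle libraries. The median log2 fold change of the 28 was 0.31, against 0.02 over all genes.

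*Irf9*, the partner of STAT2, was at 6.19, 9.62, 9.22 and 10.5 normalised CPM with vehicle and 33.1, 19.4, 11.7 and 13.6 with DMXAA in WT. These groups did not overlap, but the log2 fold change of 1.12 ± 0.26 was not called (edgeR adjusted p = 0.718). *Stat2* was at 31.2, 37.1, 29.7 and 31.9 with vehicle and 93.8, 53.2, 39.7 and 45.1 with DMXAA, again without overlap (log2 0.84 ± 0.20, edgeR adjusted p = 0.718). *Xaf1*, a pro-apoptotic factor (log2 1.87 ± 0.40, adjusted p = 0.558), and the noncoding transcript *Gm20559* (log2 2.87 ± 0.59, adjusted p = 0.474) had the next lowest p by edgeR and were not called. In all of these, WT DMXAA replicate 1 was highest and WT DMXAA replicate 3 lowest among the DMXAA libraries. *Ifih1*, the RNA sensor MDA5 (log2 1.56), *Rnf213* (1.57), *Ifi203* (1.34), *Ifi27* (1.23), *Parp9* (1.16) and *Mndal* (1.05) had an unadjusted p under 0.05 and were not called. The most abundant members, *Adar* (log2 0.08 ± 0.17), which edits double-stranded RNA, and *Cmtr1* (-0.01 ± 0.11), which caps mRNA, had adjusted p = 0.9996 by edgeR.

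Leaving out WT DMXAA replicate 3 moved the WT count from 3 to 15, with 12 higher and 3 lower. Of the 12, 11 were on the interferon list, among them *Eif2ak2*, *Ddx60*, *Ifi27*, *Stat2*, *Irf9*, *Xaf1*, *Gm20559*, *Bst2*, *Lgals3bp* and *Ifit1*, and the remaining one was *Agrp*. Of the 11, 6 (*Ddx60*, *Xaf1*, *Gm20559*, *Bst2*, *Lgals3bp* and *Ifit1*) passed the filter on low counts only with the WT DMXAA libraries, where they were high, and 5 passed it without them. *Bst2*, tetherin, went from 1 UMI with vehicle to 32 with DMXAA over all 4 WT libraries. The 3 lower were *Snx7* (log2 -0.89), *3300002I08Rik* (-0.75) and *Gm32014* (-0.66). Members with at least 4 markers gave 8 calls in WT, all higher, among them *Oasl2*, *Xaf1*, *Ddx60*, *Gm20559* and *Lgals3bp*. In members as selected, with at least 5 markers, none of these named genes passed the filter on low counts without the WT DMXAA libraries. Their calls are therefore descriptions.

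The 63 listed genes that were not tested had 422 UMIs over WT vehicle members and 827 over WT DMXAA, although WT DMXAA members were fewer. In KO members they had 241 and 285. The largest rises in WT were those of *Oasl2*, from 13 to 79 UMIs, and *Ifit1*, from 18 to 82, while KO members had 2 and 0 for *Oasl2* and 6 and 12 for *Ifit1*. Other genes fell in WT, as *Helz2* from 23 to 9 UMIs and *Lgals9* from 17 to 7. These are sums over the 4 libraries of a group, with no spread between animals.

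**Figure D4:**
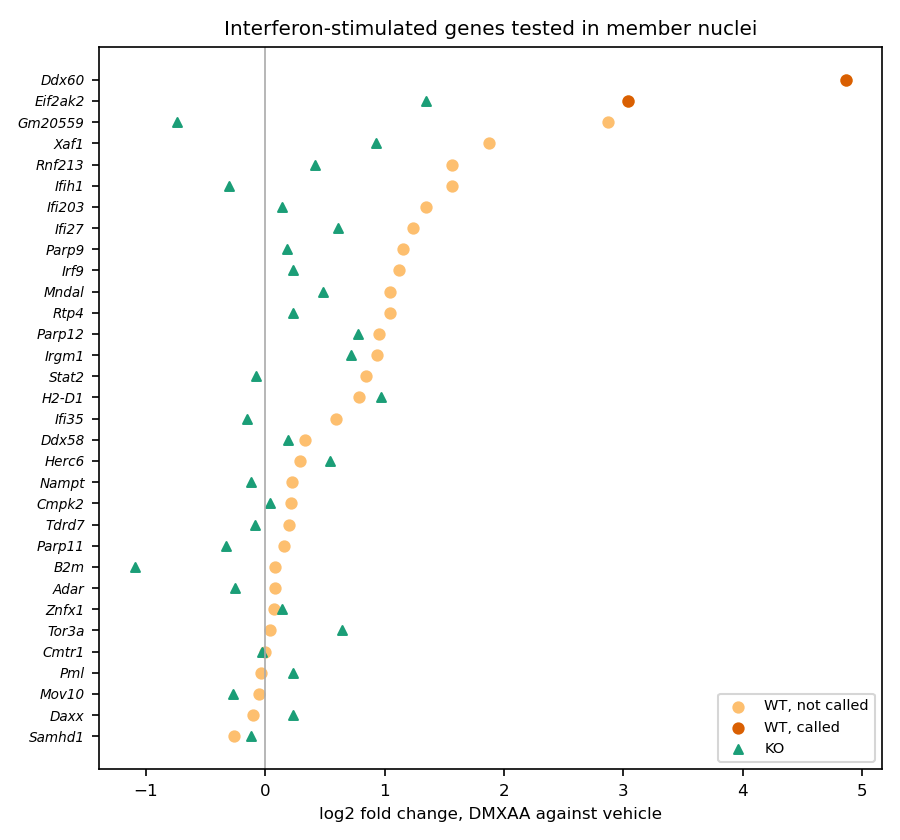
Log2 fold change of DMXAA over vehicle for 32 tested genes of the interferon list in WT members (circles, dark orange where called) and KO members (triangles), with *Ddx60* in KO not drawn. The called genes *Eif2ak2* and *Ddx60* lie at 3.04 and 4.87 in WT, and *Adar* at 0.08.

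Microglial RNA was measured beside these genes. The 6 microglial markers summed to 55.8 to 68.3 CPM in WT vehicle members and to 86.9, 97.9, 28.5 and 69.3 in WT DMXAA replicates 1 to 4. The groups overlapped through WT DMXAA replicate 3 alone, and without it all WT DMXAA libraries lay above the WT vehicle libraries. The part of microglial RNA in the WT results, with or without that library, was not tested. The sum was 20.4 to 28.8 and 27.8 to 39.6 in KO vehicle and DMXAA. Microglial nuclei were those with a *Csf1r* UMI, UMIs of at least 3 of the 6 markers and no *Slc17a7* UMI. In WT DMXAA libraries *Inpp5d* in members was at 0.101% and *C1qa* at 0.223% of its level in 3631 microglial nuclei. *Eif2ak2* in members was at 5.54% of its microglial level and *Ddx60* at 3.25%. The markers were used to choose the microglial nuclei, and *Eif2ak2* and *Ddx60* were not. Percentages of the markers therefore cannot be set against those of *Eif2ak2* and *Ddx60*. *Tmem119* was at 0.0384% and *Cx3cr1* at 1.04%. *P2ry12*, at 5.45%, was the highest of these 5 markers, and it lies inside *Med12l* on the opposite strand.

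In KO members edgeR called 0 of 14519 genes, and 911 had an unadjusted p below 0.05 (6.27%). The limma-trend fit also called 0 (913 below 0.05), and DESeq2 called 5. By DESeq2 the extracellular sulfatase *Sulf1* (log2 -0.81), the sialyltransferase *St8sia4* (-1.04), the phospholipase *Plch1* (-1.35) and *1700028E10Rik* (-1.11) were lower and the relaxin family receptor *Rxfp2* was higher (2.02). *Sulf1* was at 149, 139, 177 and 136 normalised CPM with vehicle and 69.8, 101, 101 and 70.9 with DMXAA, and *St8sia4* at 22.7, 28.4, 23.6 and 21.999 against 9.07, 17.5, 11.4 and 9.01. The groups of neither gene overlapped in KO, as for 3.86% of all genes with DMXAA above and 3.46% with DMXAA below, whereas in WT both overlapped. edgeR placed *Egfl8* (log2 2.19, adjusted p = 0.125) and *Zfp992* (-1.60, adjusted p = 0.611) among its 5 lowest p. Without KO DMXAA replicate 2, edgeR called *St8sia4* alone (log2 -1.29, adjusted p = 0.0201). On the interferon list 0 genes were called, 3 were higher at an unadjusted p under 0.05 (3.51% of all genes) and the median log2 fold change was 0.18.

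The difference between the WT and KO effects was tested as an interaction. Neither edgeR nor limma-trend called any gene (0 each). By edgeR 843 genes had an unadjusted p under 0.05 (5.81%; 3.09% positive and 2.72% negative), and by limma-trend 825. On the interferon list 8 of 33 were positive and 0 negative at that p, and 7 and 0 of the 28 that passed the filter without the WT DMXAA libraries. *Egfl8* was among the 5 lowest p, with an effect that differed by -2.53 in WT against KO (edgeR adjusted p = 0.354). DESeq2 called 4 genes, among them *Plch1* (1.78), more positive in WT, and *Dvl1*, a Wnt signal transducer (-0.76), and *Rxfp2* (-3.07), more negative. edgeR called 1 gene without WT DMXAA replicate 1, 1 without WT DMXAA replicate 3 and 1 with no filter on low counts.

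The response of members was set against that of other excitatory nuclei of the same libraries. There the log2 fold changes with DMXAA in WT were 4.61 ± 0.37 for *Ddx60* and 2.87 ± 0.31 for *Eif2ak2* (SE, edgeR adjusted p = 2.23e-05 and 0.000348). There both genes passed the filter on low counts without the WT DMXAA libraries. Member minus other excitatory differences were -0.96 ± 0.35 and -0.13 ± 0.28 on the limma scale, and neither was called (limma adjusted p = 0.984 and 0.999). The difference for *Ddx60*, which passed in members only with the WT DMXAA libraries, is a description. Over 14508 genes, limma called 0 differences in the WT effect and 0 in the KO effect, and 688 and 874 genes had an unadjusted p below 0.05. The interferon list held 0 genes higher and 7 lower in members at an unadjusted p under 0.05 (2.50% and 2.25% of all genes), with a median difference of -0.16. Over the 28 genes that passed without the WT DMXAA libraries, 0 were higher and 4 lower, with a median of -0.07. For the KO effect the 33 held 3 higher and 2 lower, against 2.69% and 3.34%, and the 28 held 2 and 2. This scale adds a prior count, which weighs more in members, whose summed UMIs are fewer than those of other excitatory nuclei. It therefore understates the change of low genes, and more so in members. By edgeR the WT log2 fold change of *Eif2ak2* was 3.04 in members, not below the 2.87 of other excitatory nuclei. Lower values of low genes in members cannot be told apart from this feature of the scale.

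A single gene, *Cwh43*, which acts on the lipid of GPI anchors, differed from other excitatory nuclei in its interaction (0.00689% of genes). It was at 44.9, 49.2, 37.5 and 33.4 CPM in WT vehicle members, 49.3, 43.5, 28.8 and 51.2 in WT DMXAA, 37.7, 33.9, 39.4 and 38.7 in KO vehicle and 34.0, 27.0, 35.7 and 25.9 in KO DMXAA. Other excitatory nuclei had 5.37 to 6.90 CPM in WT vehicle and 3.28 to 5.32 in WT DMXAA, which did not overlap. They had 3.37 to 4.44 CPM in KO vehicle and 3.92 to 5.50 in KO DMXAA. The member groups overlapped in both genotypes. The WT minus KO effect was 1.04 ± 0.16 larger on the log2 scale in members than in other excitatory nuclei (SE, limma adjusted p = 0.0414). This value holds the changes in the low levels of other excitatory nuclei as well as those in members. The call was lost in 12 of the 16 fits that left out 1 library, those without WT vehicle replicates 1, 3 or 4, any 1 of the WT DMXAA replicates, KO vehicle replicates 2, 3 or 4, or KO DMXAA replicates 1 or 2. Over the 16 fits the difference was 0.92 to 1.12 and the limma adjusted p 0.00446 to 0.1798. Against upper-layer nuclei alone it was 1.36 ± 0.65 and was not called (limma adjusted p = 0.822).

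*Mef2c* and its network were followed because the study asked about them. *Mef2c* was at 436, 89.6, 460 and 271 normalised CPM in WT vehicle members and 431, 96.0, 247 and 136 in WT DMXAA. In KO members it was at 238, 201, 210 and 286 with vehicle and 536, 290, 166 and 91.1 with DMXAA. The groups overlapped throughout, and the 3 lowest values belonged to the 3 libraries with fewest members. *Mef2c* also differed among members: pooled over libraries, it was at 466 CPM in members with a *Syt6* UMI and 256 without. It was at 243 CPM in members with a *Tle4* UMI and 494 without. Members with a *Syt6* UMI made up 5.45% to 27.1% of a library's members. The part of this mix in the *Mef2c* values was not tested. The log2 fold changes were -0.47 ± 0.52 in WT and 0.21 ± 0.52 in KO (SE, edgeR adjusted p = 0.9996 and 0.938).

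**Figure D5:**
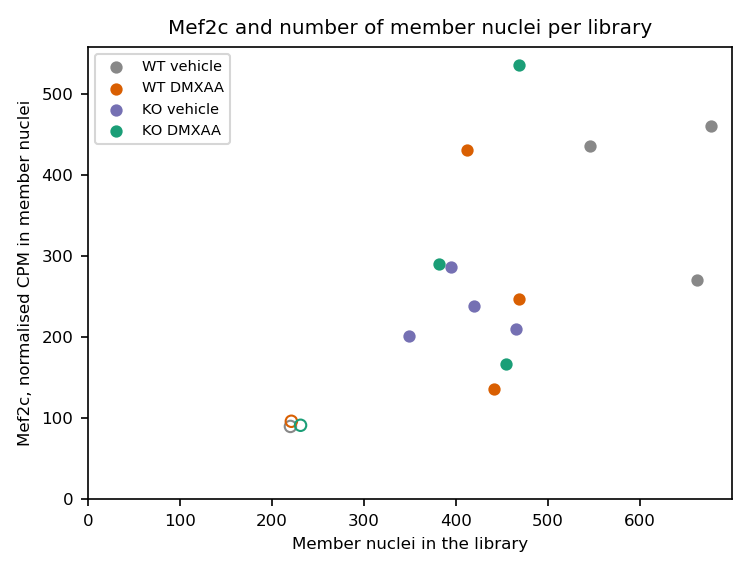
*Mef2c* in normalised CPM against the number of members, 1 point per library, coloured by group and open where a library had under 250 members. The 3 open points have the 3 lowest *Mef2c* values, 89.6, 96.0 and 91.1, and the groups overlap.

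The named targets of *Mef2c* did not pass either. *Rgs6*, a regulator of G protein signals, had a log2 fold change with DMXAA of -0.23 ± 0.29 in WT, *Dpp10* of -0.13 ± 0.19, the AMPA receptor subunit *Gria4* of -0.09 ± 0.15 and the ligase *Pdzrn3* of -0.38 ± 0.40 (SE, edgeR adjusted p = 0.9996 for each). In KO members the values were 0.12, -0.24, -0.10 and -0.28. The study listed MEF2C targets changed by *Cgas* deletion in excitatory neurons of tau transgenic mice, of which 227 were tested here. Neither this list nor the second one below was split by the direction of change in the study. Their counts and medians therefore have no single expected sign. Of these 227, edgeR called 0 in WT, where 13 were higher and 3 lower at an unadjusted p under 0.05, against 2.45% and 1.83% of all genes (median 0.10). In KO 0 were called, with 0 higher and 18 lower at an unadjusted p under 0.05, against 2.77% of all genes lower (median -0.10). Of the 227, 196 lay in the longest of 4 equal classes of gene length, whose medians were 0.08 in WT and -0.10 in KO. A second list of 107 targets was chosen by the study on these same libraries, so it is not independent evidence of a direction. It held 0 called genes in either genotype, with medians of -0.01 in WT and -0.11 in KO. At an unadjusted p under 0.05 by edgeR, 4 were higher and 2 lower in WT. In KO 0 were higher and 10 lower, against 2.77% of all genes lower. Both WT results turned on 1 library: without WT DMXAA replicate 3 the first list had 3 higher and 18 lower at an unadjusted p under 0.05 with a median of -0.08, and the second had 5 higher and 22 lower with a median of -0.20, and 0 were still called. In that fit 5.57% of all genes were higher and 3.58% lower at an unadjusted p under 0.05. The longest class held 196 of the 227 and 94 of the 107 targets, and its median was not computed for that fit. Lower values of the targets there cannot be told apart from lower values of long genes.

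Immediate early genes, which neurons transcribe upon activity, had 0 calls with DMXAA in WT. All 15 tested had a log2 fold change under 0 by edgeR (14 by DESeq2 and 14 without WT DMXAA replicate 3), with a median of -0.57 and 0 at an unadjusted p under 0.05. Of all genes 45.7% had a log2 fold change that was not above 0, and 10 of the 15 lay in the shortest of 4 equal classes of gene length, whose median was -0.05. The most abundant were *Homer1* (-0.27 ± 0.37), a scaffold of glutamate synapses, *Nr4a1* (-0.31 ± 0.23) and *Nr4a3* (-0.39 ± 0.35), with edgeR adjusted p = 0.9996.

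KO vehicle was compared with WT vehicle to describe the baseline of the genotypes. edgeR called 5633 of 14519 genes (38.8%, and 49.9% at an unadjusted p below 0.05), 2636 higher in KO (18.2%) and 2997 lower (20.6%), and DESeq2 called 5821 and limma-trend 5388. Without KO vehicle replicate 2 the count was 3483. The WT and KO mice also differed in age and median UMIs, which cannot be told apart from genotype. WT DMXAA replicate 3, with a median of 11531 member UMIs, lay among the KO libraries on the first dimension of variation. In it *Taco1* was at 50.4 normalised CPM and the microglial markers summed to 28.5 CPM, both within the range of KO libraries. What this WT library shares with the KO libraries was not tested. In other excitatory nuclei 9055 of 18934 genes were called, and limma called 0 of 14508 genes for a difference between members and other excitatory nuclei, with 1026 at unadjusted p below 0.05 (2.52% higher and 4.55% lower in members).

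Called genes followed gene length, here in 4 classes of equal size. In the shortest class 1.74% were higher and 47.8% lower in KO, with a median log2 fold change of -0.73. In the longest class, from 66.1 kb, 52.6% were higher and 3.42% lower, with a median of 0.44. Genes of cytosolic ribosomal proteins, which are short and were chosen after their values were seen, were lower for 73 of 79, with a median of -1.18. *Malat1*, a nuclear noncoding RNA, fell by 1.33 on the log2 scale in KO vehicle members (edgeR adjusted p = 0.00490). The lowest WT DMXAA library held 19918 CPM of it, against 40830 to 51380 in WT vehicle and 9243 to 19539 in KO vehicle libraries.

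Many members of neuronal gene families were higher in KO vehicle members, where 18.2% of all genes were higher. Of 26 axon guidance genes 17 were higher and 0 lower, among them the netrin receptor *Dcc* at 0.87 ± 0.19, and 22 of the 26 lay in the longest class. Ionotropic glutamate receptors had 10 higher and 0 lower of 17, with *Gria1* at 1.01 ± 0.27, *Grin2a* at 0.80 ± 0.18 and *Grin2b* at 0.51 ± 0.12 (SE, edgeR adjusted p = 0.00892, 0.00503 and 0.00659). Metabotropic glutamate receptors had 5 of 7 higher, GABA-A receptors 7 of 12, calcium and sodium channels 10 of 17 and serotonin receptors 3 of 9, with 0 lower in each. Potassium channels had 7 higher and 3 lower of 20. The longest class, where 52.6% of genes were higher, held 13 of the 17 ionotropic and 6 of the 7 metabotropic glutamate receptors, 10 of the 12 GABA-A receptors, 15 of the 17 calcium and sodium channels, 5 of the 9 serotonin receptors and 12 of the 20 potassium channels. DESeq2 called 22, 12, 6, 7, 12, 3 and 8 higher in these families in the order named, and without KO vehicle replicate 2 edgeR called 14, 8, 4, 3, 8, 1 and 6 higher. Of all genes 20.6% were higher by DESeq2 and 11.3% by edgeR without that library. *Gria1* was at 1108, 1369, 894 and 983 normalised CPM in WT vehicle and 1839, 2476, 1994 and 2484 in KO vehicle members, which did not overlap.

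Markers of other cell types and of excitatory neurons were also compared between KO vehicle and WT vehicle members. The 6 microglial markers summed to 20.4 to 28.8 CPM in KO vehicle and 55.8 to 68.3 in WT vehicle libraries, and 2 of the 4 tested were lower, *P2ry12* (-1.61 ± 0.39) and *Cx3cr1* (-1.43 ± 0.38, SE, edgeR adjusted p = 0.00667 and 0.00977). Of 5 excitatory neuron markers 3 were lower and 0 higher, among them the vesicular glutamate transporter *Slc17a7* (-0.75 ± 0.15, edgeR adjusted p = 0.00368), and the list summed to 917 to 996 CPM in KO vehicle and 1134 to 1262 in WT vehicle libraries. Oligodendrocyte markers had 2 of 5 lower and 0 higher, astrocyte markers 1 of 5 higher and 0 lower, and near projecting markers 2 of 3 higher and 0 lower. Interneuron markers had 1 of 4 higher and 1 lower. Thalamus and striatum markers had 2 of 5 higher, CA1 markers 1 of 5 and CA3 markers 1 of 3, with 0 lower in each. Of all genes 18.2% were higher and 20.6% lower. The part of these differences in the other values between genotypes was not tested.

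The lists of MEF2C targets were read against the class of longest genes. Of 227 targets, 136 were higher and 3 lower in KO vehicle members, and of the 107 chosen on these libraries 59 were higher and 4 lower, where 18.2% of all genes were higher. In the longest class, which held 196 of the 227 and 94 of the 107, 52.6% of genes were higher. Without KO vehicle replicate 2 the higher counts were 92 and 35, where 11.3% of all genes were higher.

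Chaperone and activity genes held some lower genes. Chaperone genes had 4 of 10 lower and 0 higher against 20.6% of all genes lower, among them *Hsp90ab1* (-1.21 ± 0.26) and *Dnaja1* (-0.66 ± 0.17), and 7 of the 10 lay in the shortest class, where 47.8% of genes were lower. Immediate early genes had 3 of 15 lower and 0 higher, a share near that of all genes. In the cGAS and STING pathway 3 genes could be tested, where 20.6% of all genes were lower. The kinase *Tbk1* (-0.38 ± 0.10) and the transcription factor *Irf3* (-1.39 ± 0.29) were lower (edgeR adjusted p = 0.0108 and 0.00412), while *Samhd1* was not called (0.18 ± 0.24). On chromosome 16 near *Ifnar1*, 12 genes were tested, of which *Itsn1* was the 1 higher (0.53 ± 0.12) and *Son* among the 3 lower (-0.67 ± 0.14). Of all genes 18.2% were higher and 20.6% lower.

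Genes with the largest called changes were mostly low in 1 genotype. The largest called rises whose groups did not overlap were those of *Ebf2* (log2 3.72 ± 1.12), a developmental transcription factor, *Lef1* (3.39 ± 0.84), an effector of Wnt signals, *Insyn2b* (3.05), *Taco1* (2.87), *Lncenc1* (2.69), the orphan receptor *Gpr139* (2.35), *Olfr556* (2.20) and the neurokinin receptor *Tacr3* (2.16). *Taco1* was at 8.93 to 13.1 normalised CPM in WT vehicle and 53.1 to 141 in KO vehicle members. *Ebf2* rested on 9 and 109 UMIs and *Tacr3* on 10 and 39, in WT vehicle and KO vehicle. The largest falls were those of the matrix protein *Mgp* (-2.77 ± 0.57), *Gm14764* (-2.64), *Gm32031* (-2.53), *B230217J21Rik* (-2.53), the thioredoxin-like *Txndc17* (-2.48), *Ppp1r35* (-2.41), *Olfr1256* (-2.39) and *4933421D24Rik* (-2.33). *Txndc17* was at 6.05, 5.50, 6.72 and 5.28 normalised CPM in WT vehicle and 1.22, 0.565, 0.729 and 1.62 in KO vehicle members. *Gm14764* and *4933421D24Rik* are annotated as antisense and *Gm32031* as arising at a bidirectional promoter, and olfactory receptor genes have close copies, so the counts of these genes are uncertain. Of these 16 genes, *Taco1* and *B230217J21Rik* passed the filter on low counts in the genotype where they were lower. The other 14 passed it only with libraries of the genotype where they were higher, so their folds are descriptions. The same held for 46 of the 2636 genes called higher and 362 of the 2997 called lower. Some of these calls were lost by edgeR under an alternative. *Ebf2* was not called without WT vehicle replicate 3 or without KO vehicle replicate 1 (edgeR adjusted p = 0.0529 and 0.0752), *Lncenc1* without KO vehicle replicate 1 (0.0673), *Tacr3* without KO vehicle replicate 2 (0.0504), and *Olfr556* without WT vehicle replicate 1 or 4 (0.0580 and 0.0508). *Gm32031* was not called without WT vehicle replicate 3 or KO vehicle replicate 2 (edgeR adjusted p = 0.0706 and 0.0644) or without the 3 libraries with fewest members (0.0533), nor *Lef1* in members with at most 4000 genes (0.118).

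Among genes that mark the members, *Sox5* (0.80 ± 0.16) and *Grik3* (0.84 ± 0.19) were higher in KO vehicle members (edgeR adjusted p = 0.00386 and 0.00485) and *Zfpm2* was not called (0.29 ± 0.15, adjusted p = 0.117). Of the 10 corticothalamic genes outside the selection, 3 were higher and 2 lower, against 18.2% and 20.6% of all genes. With DMXAA none of the 10 was called in either genotype by edgeR. Since the selection counts transcripts of these neurons, fewer nuclei of this kind and less RNA of its markers per nucleus cannot be told apart.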

How the data were processed

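Single-nucleus libraries (10x Genomics 3′ kit) from hippocampi of 16 mice, 4 per group by the labels, were deposited as whole UMI counts per gene and barcode, not normalised. The file headers name Cell Ranger 6.1.2 and the processing notes of the submitters Cell Ranger 3.1.0, Seurat 3.0 and the mm10 genome. Nuclei were selected as described and UMIs summed per library. No doublet caller was run, and the barred genes stood in for one. Sums were fitted with edgeR 4.0.16 (TMM, filterByExpr, quasi-likelihood F test, 4 groups, all 16 libraries) in R 4.3.3. P-values were adjusted over all genes tested. DESeq2 1.42.0 and limma 3.58.1 were alternatives, and limma on differences of log2 CPM (prior count 2) compared members with other excitatory nuclei. Scripts were tested on simulated data. Shares were compared by exact permutation (70 arrangements).

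The members and lists were chosen with earlier results of these data known. Named genes were *Ifnar1*, *Mef2c*, *Rgs6*, *Dpp10*, *Gria4*, *Pdzrn3*, the 8 largest called rises and falls without overlap in WT and between genotypes, the 5 lowest p where fewer than 5 were called, called list genes and the most abundant of each list. Replicate numbers only name libraries. Gene positions and promoters are RefSeq or GENCODE on GRCm38. Intervals are not given for sums, whose error is the spread between animals. Results for some genes are not reported here.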

Additional observations from a re-analysis of the deposited data

Results flagged for a closer look

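In 9 of 140 groups of 4 libraries, the highest library stood apart from the other 3 by Dixon's test, and chance alone picks out about 1 in 20 groups. In normalised CPM, *Ddx60* was at 0.687 in WT vehicle replicate 2 against 0.102 to 0.192. *Gm20559* was at 1.10 in KO DMXAA replicate 3 against 0 to 0.177, and *Dvl1* at 48.4 in WT vehicle replicate 3 against 37.5 to 38.5.

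In WT DMXAA replicate 3, which lay among the KO libraries on the first dimension of variation, *Lef1* was at 7.74 against 0.669 to 1.35, *Taco1* at 50.4 against 9.37 to 13.8 and *Lncenc1* at 1.89 against 0.584 to 0.747. *Lncenc1* was at 4.94 in KO DMXAA replicate 3 against 0.769 to 1.41. *Olfr556* was at 1.78 in KO vehicle replicate 4 against 1.31 to 1.35, and *Olfr1256* at 3.99 in WT vehicle replicate 1 against 2.24 to 2.40.

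The effect of DMXAA on *Cwh43*, set against other excitatory nuclei, differed between the genotypes by 1.04 on the log2 scale (limma test of the difference, adjusted p = 0.0414). The call was lost in 12 of the 16 fits that left out 1 library, with limma adjusted p from 0.00446 to 0.1798 over the 16, and against upper-layer nuclei (0.822).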

How the results depend on the processing

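Of the main counts and shares, 155 values under an alternative kept their direction and side of the threshold or stayed within 1.5 times, 31 moved further, 2 gained a call and 1 reversed. Of the values for named genes 1109 kept direction and call, 40 lost and 26 gained a call and 22 reversed. The causes of the changes below were not tested. The WT count of 3 became 8 with at least 4 markers and 1 both with at most 4000 genes and with further barred genes, and the interferon count of 3 became 7, 1 and 1. The calls with at least 4 markers included genes that, in members as selected, did not pass the filter on low counts without the WT DMXAA libraries. Leaving out 1 library gave 2 to 15 genes in WT, 2 to 11 on the interferon list, 0 to 1 in KO, 0 to 1 in the interaction and 3483 (without KO vehicle replicate 2) to 7065 (without WT DMXAA replicate 3) between genotypes. The 1 gene that differed from other excitatory nuclei in its interaction became 0 against upper-layer nuclei and 0 to 4 with 1 library left out. DESeq2 gave 5 in KO and 4 in the interaction, where no filter on low counts gave 1. Share differences ranged from -2.37 to -0.776 points in WT and from -1.08 to 0.0523 in KO when 1 library was left out.

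Named genes whose sign turned were not called. *Ifnar1* with DMXAA in WT was 0.0143 with DESeq2, 0.16 with at least 6 markers, 0.0150 with at most 4000 genes, 0.0194 with further barred genes, 0.0755 without the 3 libraries with fewest members, 0.0701 in members with a *Tle4* UMI and -0.0734 to 0.0364 with 1 library left out. *Mef2c* in KO was -0.0723 with limma-trend and -0.36 to 0.50 with 1 library left out. *Rgs6* in KO was -0.0200 with at least 4 markers and -0.10 to 0.27 with 1 library left out, and between genotypes -0.10 with at least 6 markers, -0.13 without the 3 libraries and -0.13 to 0.32 with 1 left out. *Gria4* was -0.23 to 0.00627 in WT with 1 library left out and 0.14 in KO with at most 4000 genes, where *Pdzrn3* was 0.30 in WT and 0.17 in KO. *Ifnar1* between genotypes lost its call in 11 alternatives. The fits without 3 libraries, in members with a *Tle4* UMI and with limma-trend were added after the data were seen.

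No paired analysis was possible because the replicate numbers only name the libraries. Members with few UMIs of a gene limit the precision, and 63 genes of the interferon list had too few UMIs to test.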
